A study of Mus musculus with 7 samples.

Results

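The BMP and TGF-beta pathway was followed across mouse oligodendroglia that overexpressed the transcription factor Sox9 and wild-type oligodendroglia. A list of 46 genes was chosen by symbol from the 49315 genes of the count tables: ligands, receptors, Smad proteins, extracellular antagonists, latent TGF-beta binding proteins and a few genes tied to them. All 46 were found in the tables, each on a single row. The Sox9-tg group held 4 libraries of cells labelled Sox9-tg in genotype, and the control group 3 libraries of cells labelled Sox9-wt. Both came from mouse brain, and the series' title names NG2 glia soon after birth, the dividing progenitors of oligodendrocytes, as the cells studied. The sources used here do not give the promoter that drives the transgene, the age, sex and strain of the animals or the way the cells were isolated or cultured. The labels call the libraries biological replicates without naming animals or cultures, and the p-values therefore cover only the variation among these libraries, part of which may be technical.

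Ligands of this family are secreted dimers that bring together type I and type II receptor kinases at the cell surface. The type I receptor then phosphorylates receptor Smads: Smad1, Smad5 and Smad9 after BMPs, and Smad2 and Smad3 after TGF-betas and activins, each of which enters the nucleus with Smad4. Antagonists such as noggin trap ligands outside the cell, inhibitory Smads and Smurf ubiquitin ligases act inside it, and TGF-beta is stored in the matrix as a latent complex bound to Ltbp proteins. In oligodendrocyte progenitors, BMPs are known for holding back oligodendrocyte formation and favouring astrocyte features, in part through the Id proteins.

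Libraries held 15768472 to 30507326 gene counts, and levels are given as CPM, counts divided by the TMM-scaled library total and brought to a common total, on which scale 3 counts stood for 0.0970 to 0.193 CPM. Sox9 itself averaged 2915 ± 588 CPM in Sox9-tg and 295 ± 57.0 CPM in control libraries (SD, n = 4 and 3), and the groups did not overlap. All 8 listed markers of NG2 glia were detected in every library, with summed levels of 6864 to 10906 CPM in Sox9-tg and 2013 to 2540 CPM in control libraries. Listed markers of astrocytes summed to 1627 to 2365 CPM in Sox9-tg and 2398 to 4333 CPM in control libraries, and those of neurons to 548 to 1353 CPM in Sox9-tg and 1505 to 2635 CPM in control libraries. None of the 8 markers of either type was at 0 in any library. Listed genes of mitosis summed to 309 to 720 CPM in Sox9-tg and 940 to 1530 CPM in control libraries. In the test described below 7 of these 8 were called lower (87.5%, against 5.86% of all genes tested). The part of this difference in the genes below was not tested. Sox9-tg replicates 3 and 4 were far more alike than any other pair of libraries. Their counts differed by more than sampling noise, with 22.8% of genes at p under 0.05 in a chi-square test per gene against 47.6% to 70.4% for the other pairs, which does not show whether they came from separate animals or cultures. They were counted as 2 libraries because the labels number them as separate biological replicates. Values with both averaged into 1 library stand beside the counts below. Changes in these bulk samples cannot tell fewer cells of a type from less RNA per cell.

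Among the 46 genes, 3 BMP ligands stood out: Bmp4, Bmp2 and Bmp7 rose in Sox9-tg libraries. Gdf11, Smurf1, Ltbp1 and Ltbp4 rose by smaller amounts. The antagonist gene Nbl1, the matrix gene Tgfbi and the receptor gene Bmpr1b fell. No gene of the 6 receptor and common Smads and none of the 5 type II and III receptors passed the test. Counts of all 16616 genes with enough reads were fitted together in edgeR and tested by its quasi-likelihood F test, with Benjamini-Hochberg adjusted p under 0.05 as the call, and all adjusted p-values and log2 fold changes (Sox9-tg minus control) given below come from it unless another fit is named. It covered 44 of the 46 genes, while Bmp5 and Ltbp2 were too scarce. In all, 10 of the 44 were called, or 22.7%, against 13.5% of all genes tested. The 7 higher made up 15.9%, against 7.69% of all genes, and the 3 lower 6.82%, close to the 5.86% of all genes. No overlap between the groups was seen for 16 of the 44, or 36.4%, against 24.5% of all genes tested. Of these, 10 were higher in Sox9-tg (22.7%, against 13.1%) and 6 lower (13.6%, against 11.5%). The median log2 fold change was 0.04 over the 44 genes and -0.01 over all genes tested. The list was chosen with earlier results of these data known, so its shares are not independent of them.

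These counts moved with single libraries. Of the 46 genes, 11 were called higher without Sox9-tg replicate 1. That number was 4 without Sox9-tg replicate 3, 4 when control replicate 3 was left out and 4 with Sox9-tg replicates 3 and 4 averaged. Over all genes tested it moved too, from 1278 with all libraries to 1785 without Sox9-tg replicate 1. It was 849 without Sox9-tg replicate 3, 575 without control replicate 3 and 858 with Sox9-tg replicates 3 and 4 averaged. Replicate numbers 1 to 3 occur in both groups, but the labels do not say that libraries of the same number belong together. With the replicate number as a block, 9 members were called lower and 8 higher, Sox9-tg replicate 4 having no partner and adding nothing to the comparison. Calls over all genes tested rose as well, to 1509 lower and 1600 higher, from 973 and 1278. The blocked fit added Gdf10, Tgfb1, Tgfb2, Acvr1, Tgfbr2 and Smad6 to the lower genes and Bmp3 and Nog to the higher ones, and Smurf1 lost its call. DESeq2 called 9 members higher and 5 lower, and 1709 and 1339 of all genes tested.

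**Figure D1:**
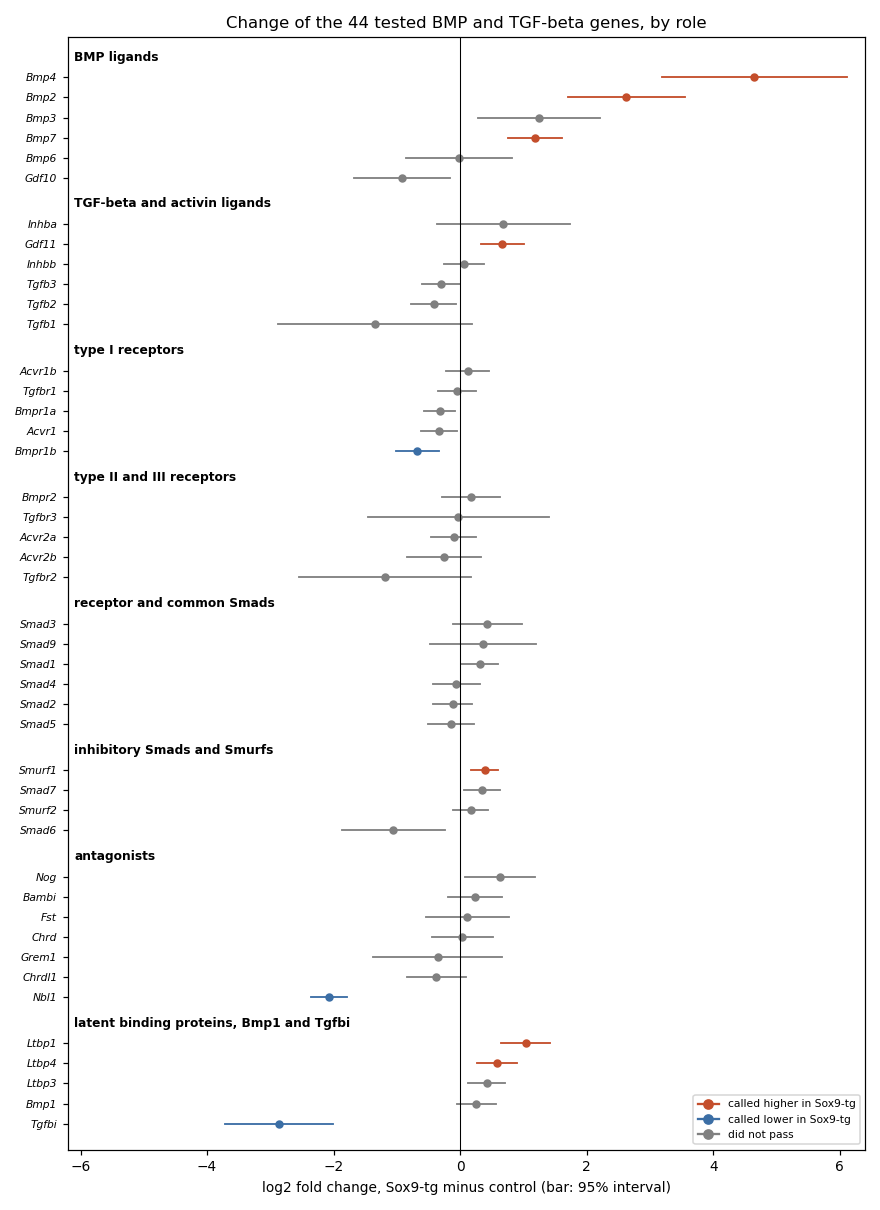
Log2 fold change of each of the 44 tested genes, Sox9-tg minus control, with its 95% interval as a bar, grouped by role. Bmp4 lies farthest to the right at 4.65 and Tgfbi farthest to the left at -2.86, while the receptor and common Smads lie between -0.15 and 0.43.

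The promoters of 5 called genes are shown, those with the smallest p in each direction among the called genes of the RefSeq table, which held 33 of the 46 members. Each runs 5′ to 3′ on the gene's strand, from 250 bases before to 50 after a RefSeq start on GRCm38.p6, and capitals mark the SOX core letters ACAATG or ACAAAG on either strand.
Bmp4 (chr14:46390620-46390919, minus strand): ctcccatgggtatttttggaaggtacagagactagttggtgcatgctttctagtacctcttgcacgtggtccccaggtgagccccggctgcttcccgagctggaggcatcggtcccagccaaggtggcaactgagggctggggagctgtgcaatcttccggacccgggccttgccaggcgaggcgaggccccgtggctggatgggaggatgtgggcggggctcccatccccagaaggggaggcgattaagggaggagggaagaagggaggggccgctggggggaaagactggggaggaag
Ltbp1 (chr17:75005279-75005578, plus strand): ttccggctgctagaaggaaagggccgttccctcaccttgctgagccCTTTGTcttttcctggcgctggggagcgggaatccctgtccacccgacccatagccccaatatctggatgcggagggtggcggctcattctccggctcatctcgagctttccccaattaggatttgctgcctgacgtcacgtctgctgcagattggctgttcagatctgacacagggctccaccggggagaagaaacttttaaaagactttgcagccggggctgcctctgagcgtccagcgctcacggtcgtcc
Nbl1 (chr4:139092921-139093220, minus strand): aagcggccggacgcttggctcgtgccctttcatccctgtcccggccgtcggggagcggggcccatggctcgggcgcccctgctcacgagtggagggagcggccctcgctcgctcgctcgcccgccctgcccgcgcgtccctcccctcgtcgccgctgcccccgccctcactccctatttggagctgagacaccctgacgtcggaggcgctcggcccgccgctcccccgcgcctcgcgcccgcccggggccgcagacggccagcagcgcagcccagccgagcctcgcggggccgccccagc
Tgfbi (chr13:56609336-56609635, plus strand): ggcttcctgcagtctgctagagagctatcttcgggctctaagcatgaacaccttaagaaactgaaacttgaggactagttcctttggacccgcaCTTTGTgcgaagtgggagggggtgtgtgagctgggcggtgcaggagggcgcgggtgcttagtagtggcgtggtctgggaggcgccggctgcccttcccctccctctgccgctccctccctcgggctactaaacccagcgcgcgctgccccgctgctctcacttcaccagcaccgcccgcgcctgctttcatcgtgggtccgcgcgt
Bmpr1b (chr3:141982215-141982514, minus strand): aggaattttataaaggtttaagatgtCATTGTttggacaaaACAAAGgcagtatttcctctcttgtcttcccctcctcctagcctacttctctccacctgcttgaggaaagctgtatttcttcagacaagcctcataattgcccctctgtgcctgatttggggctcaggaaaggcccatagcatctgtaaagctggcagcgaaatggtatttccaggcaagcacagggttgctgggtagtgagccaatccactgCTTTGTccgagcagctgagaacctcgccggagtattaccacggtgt
The core letters were in at least 1 window of 9 of the 33 genes, some of which have several windows. Counted per window, 28.6% of all 32851 windows in the table held them. Bmp4, the gene that rose most, and Nbl1, the gene with the smallest adjusted p, had none in this window. Ltbp1 and Tgfbi had 1 each in the windows shown and Bmpr1b 3. The letters GGCGCC, a GC-rich element known to bind Smad proteins, were in at least 1 window of 13 of the 33 genes, Nbl1 and Tgfbi among them. Counted per window, 11.9% of all windows held these letters, which read the same on either strand. The palindromic Smad element GTCTAGAC was in a window of 1 of the 33 genes, Smad6, and in 0.213% of all windows. No search motif contains another. These matches describe letters, not binding.

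Of 6 tested BMP ligands 3 rose (50%, against 7.69% of all genes tested) and none fell. The median log2 fold change of the 6 was 1.22. Classes are small, and the counts for each class below stand beside 7.69% higher and 5.86% lower over all genes tested. Bmp4 (ENSMUSG00000021835, GRCm38 chromosome 14, 46383520 to 46390669, minus strand), a ligand that activates Smad1, Smad5 and Smad9, had 27.4, 144, 115 and 93.7 CPM in Sox9-tg replicates 1 to 4, against 1.28, 5.04 and 4.62 CPM in control replicates 1 to 3. Its lowest Sox9-tg value, in replicate 1, was still above the highest control value. Bmp4 rose 25.1-fold (log2 fold change 4.65, SE 0.65, adjusted p = 0.00246), and 3.96% of its exon length overlaps a gene on the opposite strand. The order of libraries for Bmp4 was also that of 8 summed markers of premyelinating and myelinating oligodendrocytes, which were at 930, 5233, 3003 and 2614 CPM in Sox9-tg replicates 1 to 4 and at 102, 199 and 185 CPM in control replicates 1 to 3. Of those markers 6 rose, Mog was not called, Mobp was too scarce to test, and none was at 0 in any library. The summed NG2 glia markers had the same order of libraries as Bmp4. They were at 6864, 10906, 10675 and 9940 CPM in Sox9-tg replicates 1 to 4. In control replicates 1 to 3 they were at 2013, 2540 and 2209 CPM. Summed markers of microglia, given below, also had that order within each group. The part of any of these cell types in the rise of Bmp4 was not tested.

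Bmp2 (ENSMUSG00000027358, chromosome 2, 133552159 to 133562885, plus strand), the closest relative of Bmp4, was scarce. It had 5.04, 4.09, 4.51 and 5.07 CPM in Sox9-tg libraries, against 0.581, 1.24 and 0.420 CPM in control libraries. Unlike Bmp4, it was not lower in Sox9-tg replicate 1 than in the other Sox9-tg libraries. It rose 6.18-fold (log2 fold change 2.63, SE 0.41, adjusted p = 0.00405), and without control replicate 2 its log2 fold change was 3.24. Bmp7 (ENSMUSG00000008999, chromosome 2, 172868012 to 172940321, minus strand), a BMP of the Bmp5, Bmp6 and Bmp7 subgroup, was abundant in both groups. Its levels were 96.2, 97.4, 125 and 123 CPM in Sox9-tg libraries, against 38.7, 62.3 and 44.0 CPM in control libraries. It rose 2.28-fold (log2 fold change 1.19, SE 0.19, adjusted p = 0.00430), with every Sox9-tg library above every control library. The calls of Bmp4, Bmp2 and Bmp7 held under each alternative fit, without each library in turn and with Sox9-tg replicates 3 and 4 averaged.

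The remaining BMP ligands were scarce. Bmp3, which opposes other BMPs, had 3.36, 5.54, 2.90 and 3.51 CPM in Sox9-tg libraries, against 0.756, 2.41 and 1.62 CPM in control libraries. These groups did not overlap, but the gene did not pass (log2 fold change 1.25, adjusted p = 0.0929). It passed without control replicate 2 (adjusted p = 0.0445) and with the replicate block (0.0300). Gdf10, its closest relative, had 3.78 to 7.42 CPM in Sox9-tg and 7.73 to 17.6 CPM in control libraries and did not pass either (-0.92, adjusted p = 0.116, or 0.0221 with the replicate block). Bmp6 averaged 1.52 ± 0.356 CPM in Sox9-tg and 1.54 ± 0.578 CPM in control libraries, with a 95% interval of the log2 fold change from -0.86 to 0.82. Bmp5 stood at 0.0644 to 0.349 CPM in Sox9-tg and 0.0581 to 0.550 CPM in control libraries, near the level of 3 counts, and was not tested. A gene on the opposite strand overlaps 46.7% of its exon length.

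**Figure D2:**
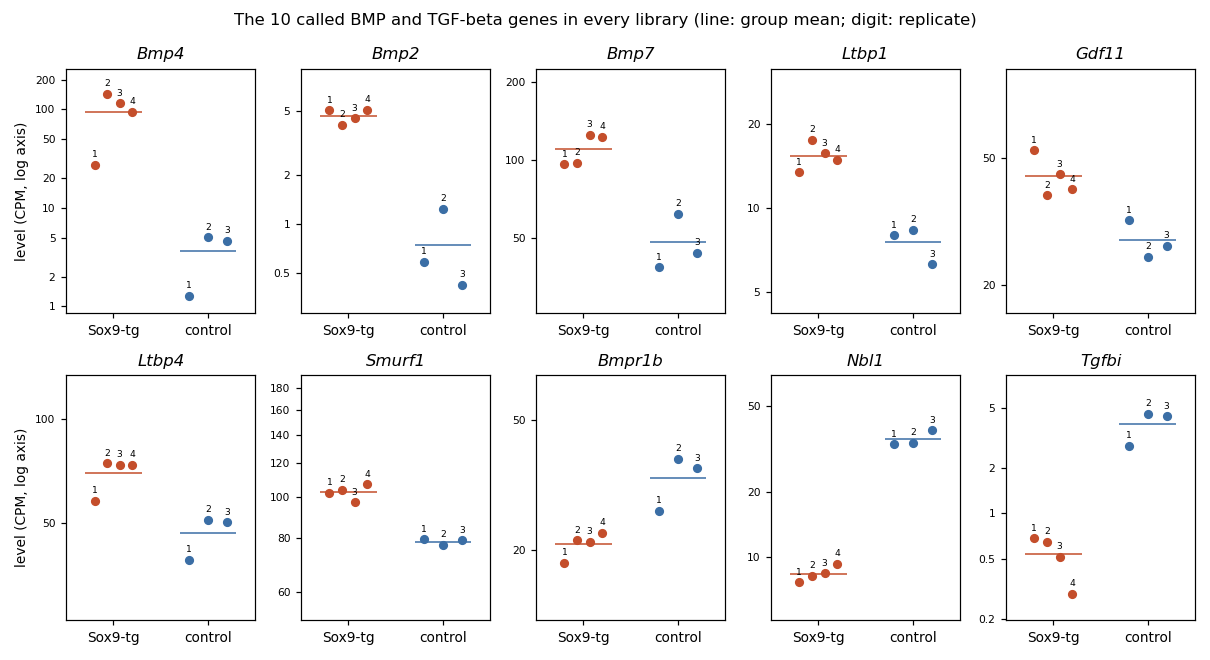
Levels in CPM on log axes of the 10 called genes in the 4 Sox9-tg and 3 control libraries, with the group mean as a line and the replicate number over each point. In every panel the groups are separate. Sox9-tg replicate 1 is the lowest Sox9-tg library for Bmp4 (27.4 CPM), Bmp7 (96.2 CPM), Ltbp1 (13.4 CPM), Ltbp4 (58.0 CPM), Bmpr1b (18.3 CPM) and Nbl1 (7.61 CPM). It is the highest for Gdf11 (52.8 CPM) and Tgfbi (0.683 CPM).

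Of 6 TGF-beta and activin ligands, only Gdf11 was called, and the class median was -0.12. Gdf11 (ENSMUSG00000025352, chromosome 10, 128882295 to 128891718, minus strand), which signals through activin receptors, had 52.8, 38.1, 44.4 and 39.8 CPM in Sox9-tg libraries, against 31.9, 24.5 and 26.5 CPM in control libraries. It rose 1.59-fold (log2 fold change 0.67, SE 0.15, adjusted p = 0.0209). The call was lost without Sox9-tg replicate 3 (adjusted p = 0.0614), control replicate 2 (0.0637) or control replicate 3 (0.102), and with Sox9-tg replicates 3 and 4 averaged (0.0509). Inhbb, the activin beta-B subunit and the highest of the class per kilobase of exon, averaged 61.5 ± 8.07 CPM in Sox9-tg and 59.1 ± 6.94 CPM in control libraries (95% interval of the log2 fold change -0.26 to 0.37). Inhba, the beta-A subunit, was under 1 CPM in every library.

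The 3 TGF-beta genes did not pass. Tgfb2, the highest of them per kilobase of exon, averaged 43.7 ± 5.74 CPM in Sox9-tg and 58.5 ± 11.4 CPM in control libraries (log2 fold change -0.42, adjusted p = 0.128, or 0.0286 with the replicate block). Tgfb3 had 12.8 to 15.4 CPM in Sox9-tg and 15.5 to 18.0 CPM in control libraries, groups that did not overlap (-0.30, adjusted p = 0.188). Tgfb1 had 1.37, 6.63, 3.16 and 1.85 CPM in Sox9-tg libraries, against 3.14, 17.0 and 4.59 CPM in control libraries. Replicate 2 was the highest library of each group, and the groups overlapped (-1.35, SE 0.67, adjusted p = 0.243). With the replicate block the log2 fold change of Tgfb1 was -1.04 and passed (adjusted p = 0.0234).

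Tgfb1 and the receptor gene Tgfbr2 are known for strong expression in microglia. Summed markers of microglia and of endothelial cells were, like both genes, highest in replicate 2 of each group. So were Bmp4 and the summed markers of oligodendrocytes and of NG2 glia. The 8 microglial markers summed to 51.8, 280, 101 and 81.2 CPM in Sox9-tg replicates 1 to 4 and to 95.5, 647 and 187 CPM in control replicates 1 to 3. None of the 8 was at 0 in any library, none was called, and their median log2 fold change was -1.46. The 8 endothelial markers summed to 18.01, 80.8, 23.4 and 26.0 CPM in Sox9-tg replicates 1 to 4 and to 11.8, 153 and 9.15 CPM in control replicates 1 to 3. Of these 6 were tested and none was called, with a median of -2.07, and Emcn alone was at 0 in a library. Their log2 fold changes ran from -2.41 to 1.53, the latter for Vwf. The sums in control replicates 1 and 3 lay below every Sox9-tg sum, and only that of control replicate 2 lay above. Tgfbr2 had 2.94, 10.9, 3.41 and 4.88 CPM in Sox9-tg libraries, against 4.71, 24.4 and 8.51 CPM in control libraries, again highest in replicate 2 of each group. Its log2 fold change was -1.18 (SE 0.60, adjusted p = 0.249), and with the replicate block -1.07 (adjusted p = 0.00731). The part of microglia or endothelial cells in either gene was not tested.

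**Figure D3:**
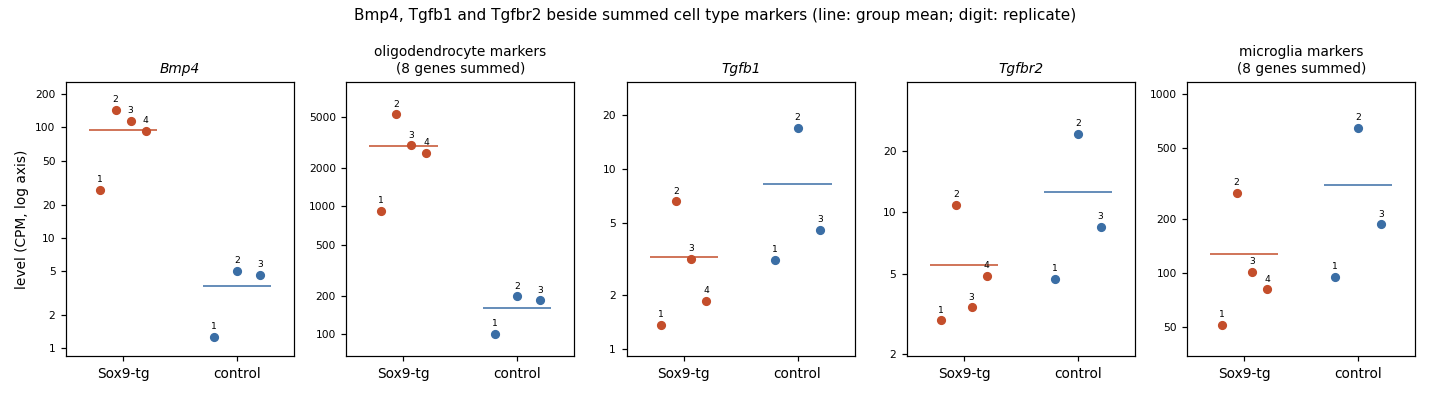
Levels in CPM on log axes of Bmp4, Tgfb1 and Tgfbr2 in every library, beside the summed levels of 8 oligodendrocyte and 8 microglial markers, with group means as lines. In every panel replicate 1 is the lowest and replicate 2 the highest library of each group.

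Of 5 type I receptors 1 fell and none rose, and of 5 type II and III receptors none passed. Bmpr1b (ENSMUSG00000052430, chromosome 3, 141837136 to 142169425, minus strand), a type I receptor for BMPs, had 18.3, 21.4, 21.1 and 22.5 CPM in Sox9-tg libraries, against 26.3, 38.0 and 35.5 CPM in control libraries. It fell 1.60-fold (log2 fold change -0.68, SE 0.15, adjusted p = 0.0186) without overlap between groups. Its call was lost without Sox9-tg replicate 3 (adjusted p = 0.0569), control replicate 2 (0.0631) or control replicate 3 (0.0980), and with Sox9-tg replicates 3 and 4 averaged (0.0504). Bmpr1a, its close relative and the higher of the pair per kilobase of exon, had 105, 105, 102 and 122 CPM in Sox9-tg libraries, against 127, 137 and 144 CPM in control libraries. These groups did not overlap either, but Bmpr1a did not pass (-0.32, adjusted p = 0.0892).

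Acvr1, a type I receptor used by Bmp7, averaged 39.5 ± 4.38 CPM in Sox9-tg and 49.8 ± 5.03 CPM in control libraries (-0.34, adjusted p = 0.125, or 0.0445 with the replicate block). The activin receptor gene Acvr1b and the TGF-beta receptor gene Tgfbr1 had log2 fold changes of 0.12 (95% interval -0.22 to 0.46) and -0.05 (-0.35 to 0.24). Among type II receptors, Bmpr2 was at 110 to 205 CPM in Sox9-tg and 121 to 138 CPM in control libraries, with Sox9-tg replicate 1 the highest. Acvr2a and Acvr2b, which serve activins and BMPs, had log2 fold changes of -0.10 and -0.26, with 95% intervals from -0.46 to 0.25 and from -0.84 to 0.32. Tgfbr3, the co-receptor betaglycan, was at 0.451 to 1.45 CPM in Sox9-tg and 0.349 to 1.79 CPM in control libraries, and its interval of -1.46 to 1.40 leaves large changes undetected.

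None of the 6 receptor and common Smads passed. The BMP Smads were at 61.5 to 84.6 CPM in Sox9-tg and 56.2 to 64.1 CPM in control libraries for Smad1. Smad5 averaged 212 ± 37.4 CPM in Sox9-tg and 235 ± 24.4 CPM in control libraries, and Smad9 stayed under 6 CPM in every library. Smad3, a Smad of the TGF-beta branch, had 29.0, 63.8, 55.2 and 54.5 CPM in Sox9-tg libraries, against 34.1, 43.2 and 35.4 CPM in control libraries. Its Sox9-tg replicate 1 was below all control libraries, and its log2 fold change was 0.43 (adjusted p = 0.303). Without that library Smad3 was called at 0.62 (adjusted p = 0.0147), and Smad1 at 0.39 (adjusted p = 0.0310). Smad2 and the shared partner Smad4 had 95% intervals of the log2 fold change from -0.43 to 0.19 and from -0.43 to 0.31.

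Among inhibitors inside the cell, Smurf1 rose and the 2 inhibitory Smads differed in sign without passing. Smurf1 (ENSMUSG00000038780, chromosome 5, 144876495 to 144965847, minus strand), a ubiquitin ligase that marks BMP Smads and receptors for breakdown, had 102, 104, 97.2 and 107 CPM in Sox9-tg libraries, against 79.5, 77.2 and 79.2 CPM in control libraries. The rise was small but the groups did not overlap (1.31-fold, log2 fold change 0.38, SE 0.09, adjusted p = 0.0259). Its call was lost without Sox9-tg replicates 3 (adjusted p = 0.0625) or 4 (0.0913), without control replicates 1 (0.0861), 2 (0.0764) or 3 (0.129), with the replicate block (0.0606), with no filter on low counts (0.0711) and with Sox9-tg replicates 3 and 4 averaged (0.0681). Smurf2, its close relative, averaged 87.9 ± 9.01 CPM in Sox9-tg and 78.5 ± 8.10 CPM in control libraries (0.16, adjusted p = 0.438).

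Smad6, which mainly limits BMP signals and is itself induced by them, had 1.94, 3.29, 1.93 and 2.98 CPM in Sox9-tg libraries, against 2.91, 6.76 and 6.15 CPM in control libraries. It did not pass (log2 fold change -1.06, SE 0.36, adjusted p = 0.0907), but did without control replicate 1 (adjusted p = 0.0409) and with the replicate block (0.0375). Smad7, which limits both branches, had 24.2, 28.0, 31.4 and 27.0 CPM in Sox9-tg libraries, against 22.2, 22.8 and 20.3 CPM in control libraries. It was higher in each Sox9-tg library and did not pass (0.35, adjusted p = 0.109). Without Sox9-tg replicate 1 it did (adjusted p = 0.0443).

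Of 7 antagonists 1 fell, none rose and 6 did not pass. Nbl1 (ENSMUSG00000041120, chromosome 4, 139082284 to 139092993, minus strand), which encodes the secreted BMP antagonist DAN, had the smallest adjusted p of the list. Its levels were 7.61, 8.13, 8.37 and 9.27 CPM in Sox9-tg libraries, against 33.2, 33.8 and 38.6 CPM in control libraries. Both groups were tight and far apart. Nbl1 fell 4.22-fold (log2 fold change -2.08, SE 0.13, adjusted p = 0.000118), and kept its call without each library in turn and under each alternative fit.

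Nog, which encodes the BMP trap noggin, had 17.3, 25.9, 25.0 and 29.6 CPM in Sox9-tg libraries, against 10.8, 20.4 and 15.9 CPM in control libraries. Its values were higher in Sox9-tg on average but overlapped, and it did not pass (log2 fold change 0.63, adjusted p = 0.134, or 0.0266 with the replicate block). Chordin (Chrd) averaged 13.4 ± 0.949 CPM in Sox9-tg and 13.1 ± 4.07 CPM in control libraries, and chordin-like 1 (Chrdl1) 25.0 ± 5.92 and 32.3 ± 5.98 CPM. Bambi, a membrane receptor without a kinase that acts as a decoy, averaged 8.83 ± 0.631 CPM in Sox9-tg and 7.49 ± 1.42 CPM in control libraries. Follistatin (Fst), which traps activins, and gremlin (Grem1) were scarce, at 0.451 to 2.06 CPM in Sox9-tg and 0.585 to 2.07 CPM in control libraries.

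Genes that hold latent TGF-beta in the matrix rose in part. Ltbp1 (ENSMUSG00000001870, chromosome 17, 75005568 to 75392512, plus strand) had 13.4, 17.6, 15.7 and 14.9 CPM in Sox9-tg libraries, against 7.96, 8.35 and 6.27 CPM in control libraries. It rose 2.05-fold (log2 fold change 1.04, SE 0.17, adjusted p = 0.00542) and kept its call without each library in turn. Ltbp4 (ENSMUSG00000040488, chromosome 7, 27305136 to 27337692, minus strand) had 58.0, 74.5, 73.6 and 73.9 CPM in Sox9-tg libraries, against 39.1, 51.0 and 50.2 CPM in control libraries. Replicate 1 was the lowest library of both groups, and the groups did not overlap. Ltbp4 rose 1.49-fold (log2 fold change 0.58, SE 0.14, adjusted p = 0.0277). That call was lost without Sox9-tg replicates 2 (adjusted p = 0.0534), 3 (0.0782) or 4 (0.0772), without control replicates 1 (0.0988) or 3 (0.0851), and with Sox9-tg replicates 3 and 4 averaged (0.0762).

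Ltbp3, the highest of the 4 Ltbp genes per kilobase of exon, had 114, 135, 150 and 144 CPM in Sox9-tg libraries, against 90.8, 105 and 108 CPM in control libraries. It was higher in every Sox9-tg library and narrowly missed the threshold (log2 fold change 0.42, adjusted p = 0.0642), and it passed without Sox9-tg replicate 1 (0.0166). Ltbp2, which unlike its relatives does not store TGF-beta, had 0 to 0.200 CPM in Sox9-tg and 0.291 to 0.520 CPM in control libraries and was too scarce to test. Bmp1, a protease that matures procollagen and cleaves chordin and is not a ligand of the family, averaged 131 ± 10.8 CPM in Sox9-tg and 110.4 ± 18.5 CPM in control libraries (0.25, adjusted p = 0.280).

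Tgfbi (ENSMUSG00000035493, chromosome 13, 56609523 to 56639562, plus strand), a secreted matrix protein named for its induction by TGF-beta, was scarce in both groups. It had 0.683, 0.648, 0.515 and 0.293 CPM in Sox9-tg libraries, against 2.79, 4.55 and 4.40 CPM in control libraries. Every Sox9-tg library was below every control library. Tgfbi fell 7.28-fold (log2 fold change -2.86, SE 0.38, adjusted p = 0.00191) and kept its call without each library in turn.

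Levels of different genes were compared per kilobase of exon, since longer transcripts yield more counts. On that scale Bmp4 averaged 42.2 ± 22.0 CPM per kb in Sox9-tg libraries, the highest mean of the 46 genes, against 1.62 ± 0.917 CPM per kb and rank 32 in control libraries. Its Sox9-tg spread overlapped those of Smad4, Smad5 and Bmp7, the next in order at 32.2, 28.6 and 27.4 CPM per kb. Bmp7 ranked 4 in Sox9-tg and 11 in control libraries, where it averaged 12.03 ± 3.08 CPM per kb. Nbl1 held rank 25 in Sox9-tg libraries (4.11 ± 0.341 CPM per kb) and rank 5 in control libraries (17.3 ± 1.43 CPM per kb). In control libraries the highest means were those of Smad4, Smad5 and Bmpr1a, at 33.6, 31.6 and 21.4 CPM per kb.

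The ratio of Bmp4 to Bmp7 per kilobase was 0.509, 2.64, 1.64 and 1.37 in Sox9-tg replicates 1 to 4, against 0.0591, 0.144 and 0.188 in control replicates 1 to 3. Bmp4 thus exceeded Bmp7 in 3 of the 4 Sox9-tg libraries and in no control library. Bmp2 remained a minor ligand per length, at 1.32 ± 0.132 CPM per kb in Sox9-tg and 0.210 ± 0.121 CPM per kb in control libraries.

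**Figure D4:**
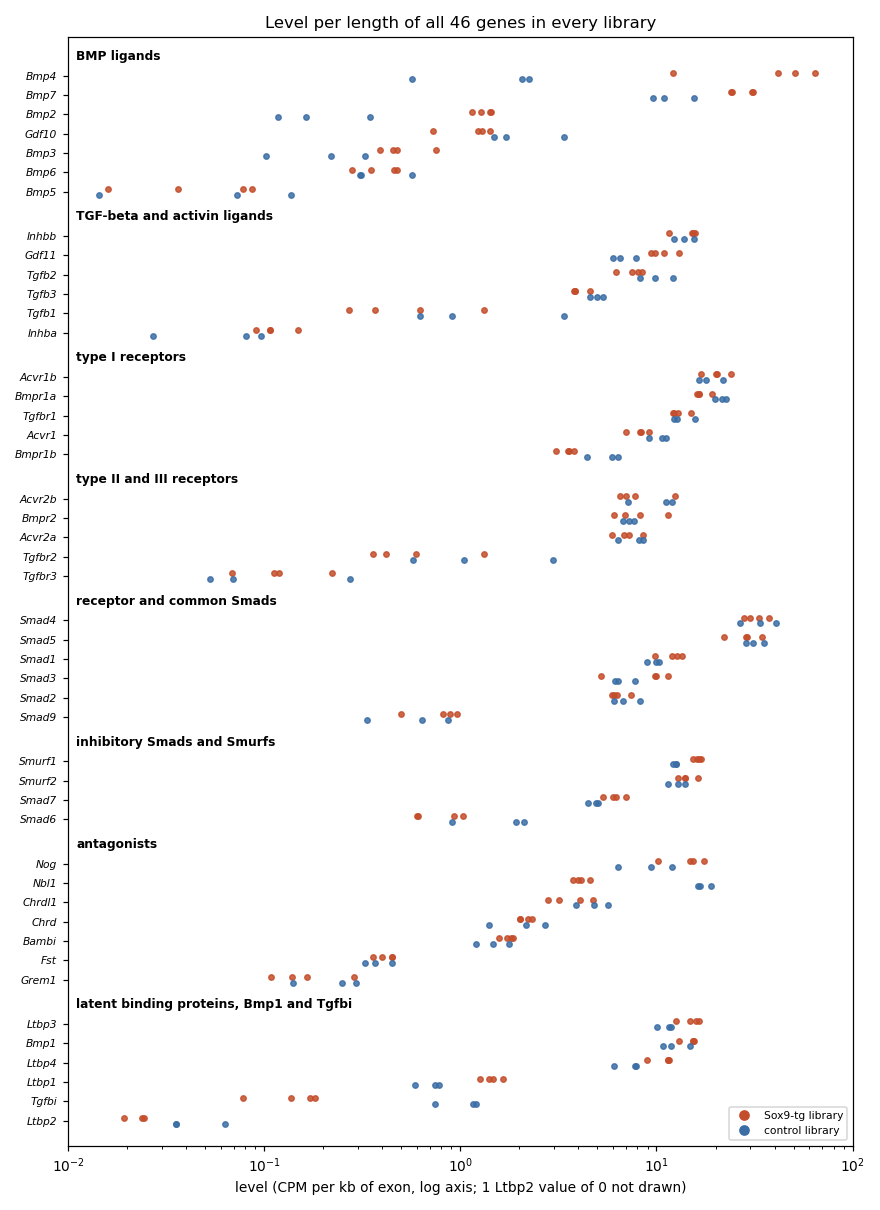
Level of each of the 46 genes in CPM per kb of exon on a log axis, 1 point per library, grouped by role. Bmp4 has the highest mean in Sox9-tg libraries (42.2 CPM per kb), against 1.62 CPM per kb in control libraries, and the points of both groups overlap for each of Smad1, Smad2, Smad3, Smad4, Smad5 and Smad9.

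Other genes of the pathway were taken from lists that cover targets, further ligands, co-receptors and regulators. These lists too were chosen with earlier results of these data known. They held 89 distinct genes, of which 66 were tested. Of these 6 rose (9.09%, against 7.69% of all genes) and 8 fell (12.1%, against 5.86%), and their median log2 fold change was -0.06. The number higher was 10 when Sox9-tg replicate 1 was left out. The number lower was 3 when Sox9-tg replicate 3 was left out, 4 for Sox9-tg replicate 4, 2 for control replicate 2, 2 for control replicate 3 and 4 with Sox9-tg replicates 3 and 4 averaged. Over all genes tested, the number lower was 973 with all libraries and 493, 530, 792, 390 and 526 under those settings in turn. With the replicate block 9 of these genes were called higher and 11 lower, beside 1600 and 1509 of all genes tested. The blocked fit added Cyr61 (adjusted p = 0.00273), Bgn (0.000173) and Neo1 (0.0479) to the higher genes. It added Fn1 (0.000564), Bmper (0.0281), Col1a2 (0.0319), Acvrl1 (0.0389) and Dlx5 (0.0463) to the lower ones, and Msx1 and Acvr1c lost their calls. Of 8 tested BMP target genes 4 fell and none rose. Id1, a helix-loop-helix protein that blocks differentiation factors, had 12.4, 17.0, 18.3 and 20.7 CPM in Sox9-tg libraries, against 37.8, 54.7 and 43.5 CPM in control libraries. It fell with a log2 fold change of -1.41 (SE 0.19, adjusted p = 0.00223). Its relatives Id2 (-0.81, adjusted p = 0.0209) and Id3 (-0.63, adjusted p = 0.0384) fell too. Summed markers of astrocytes, which are known to express Id genes, were lower in every Sox9-tg library than in every control library. The gap was narrow, from 2365 CPM in the highest Sox9-tg to 2398 CPM in the lowest control library. Of the 8 markers 3, Aqp4, Slc1a2 and Gja1, were called lower, and 5 did not pass. The part of astrocytes in these falls was not tested.

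The calls of Id2 and Id3 depended on single libraries. Id2 lost its call without Sox9-tg replicates 3 (adjusted p = 0.0623) or 4 (0.0512) or control replicates 2 (0.0533) or 3 (0.0864). Id3 lost its call without any of Sox9-tg replicates 1 to 4 (0.0587, 0.0644, 0.106 and 0.0770) or control replicates 2 (0.0986) or 3 (0.0880). The homeobox gene Msx1, at 0.806 ± 0.243 CPM in Sox9-tg and 2.39 ± 1.21 CPM in control libraries, fell narrowly (adjusted p = 0.0467). It lost its call without Sox9-tg replicates 2 (0.0787), 3 (0.116) or 4 (0.104), without control replicates 2 (0.169) or 3 (0.114), with the replicate block (0.0528), with limma-voom (0.0547) and with no filter (0.0717). With Sox9-tg replicates 3 and 4 averaged, Id2, Id3 and Msx1 had adjusted p = 0.0550, 0.0918 and 0.0971. Id4 (224 ± 48.2 CPM in Sox9-tg and 204 ± 10.1 CPM in control libraries) and Hey1 (46.1 ± 7.95 and 45.9 ± 10.5 CPM) did not pass.

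Of 15 tested TGF-beta target genes 1 rose and none fell. The riser was Tgif1, which encodes a repressor that binds Smad2 and Smad3. It had 14.3 to 22.4 CPM in Sox9-tg and 8.34 to 9.85 CPM in control libraries (log2 fold change 0.97, adjusted p = 0.0120, or 0.0689 without control replicate 3). The feedback genes Skil and Pmepa1 had 95% intervals of the log2 fold change from -0.15 to 0.65 and from -0.32 to 0.43.

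Both tested genes of the integrin that frees latent TGF-beta rose. Itgav had 248, 285, 230 and 281 CPM in Sox9-tg libraries, against 71.1, 101 and 84.1 CPM in control libraries (log2 fold change 1.61, SE 0.16, adjusted p = 0.000498). Itgb8, its partner subunit, had 186, 179, 157 and 176 CPM in Sox9-tg libraries, against 85.4, 99.98 and 98.0 CPM in control libraries (0.88, SE 0.11, adjusted p = 0.00180). No Sox9-tg library of either gene came within the control range. Other members of that list were not called, and Itgb6 and Lrrc32 were too scarce to test.

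Co-receptors of the repulsive guidance family, which bind BMPs and also the receptor neogenin, went opposite ways. Rgmb had 254, 157, 229 and 202 CPM in Sox9-tg libraries, against 54.1, 36.9 and 50.7 CPM in control libraries. It rose 4.45-fold (log2 fold change 2.15, SE 0.21, adjusted p = 0.000466). Rgma had 153, 133, 185 and 190 CPM in Sox9-tg libraries, against 225, 393 and 315 CPM in control libraries. It fell (log2 fold change -0.91, SE 0.20, adjusted p = 0.0196), a call lost without control replicates 2 (0.0659) or 3 (0.0875). The activin-type receptor gene Acvr1c also passed at -1.75, but at 0.0976 to 0.315 CPM in Sox9-tg and 0.520 to 0.814 CPM in control libraries it lay near the level of 3 counts. It lost its call without any of the libraries except Sox9-tg replicate 1, with adjusted p = 0.0742, 0.0964 and 0.0979 without Sox9-tg replicates 2, 3 and 4, and 0.146, 0.0623 and 0.170 without control replicates 1, 2 and 3. The call was also lost with DESeq2 (0.0844), the replicate block (0.0958), no filter (0.153) and Sox9-tg replicates 3 and 4 averaged (0.0866).

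Of 15 tested extracellular modulators 2 rose and 2 fell. Pcsk6, a protease that cleaves ligand precursors, had 36.1 to 57.7 CPM in Sox9-tg and 12.8 to 21.4 CPM in control libraries (2.82-fold, adjusted p = 0.00278). Fbn2, a microfibril protein that binds BMPs, had 46.4 to 79.0 CPM in Sox9-tg and 14.6 to 17.2 CPM in control libraries (3.46-fold, log2 fold change 1.79, adjusted p = 0.00115). Fstl1, a secreted follistatin-like protein, had 61.1 to 70.1 CPM in Sox9-tg and 99.97 to 113 CPM in control libraries (-0.69, adjusted p = 0.00292). Htra1, a secreted protease known to dampen signals of the family, averaged 40.7 ± 9.19 CPM in Sox9-tg and 101 ± 40.3 CPM in control libraries (-1.31, adjusted p = 0.0182), a call lost without Sox9-tg replicate 3 (0.0542) or control replicates 2 (0.0535) or 3 (0.0783). None of 6 tested further ligands passed, and 12 others of that list were too scarce to test. Among 14 other intracellular regulators Tgif1 was the only one called.

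**Figure D5:**
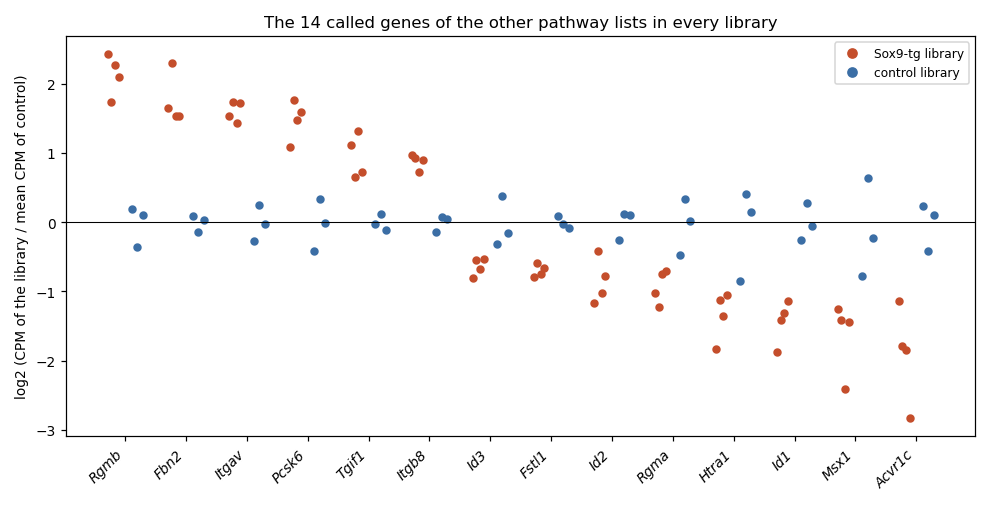
Level of the 14 called genes of the other pathway lists in each library, as the log2 ratio of its CPM to the control mean. Sox9-tg points lie above all control points for Rgmb, Fbn2, Itgav, Pcsk6, Tgif1 and Itgb8 and below them for the other 8 genes.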

How the data were processed

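Read counts per gene were analysed for 4 Sox9-tg and 3 control libraries, grouped by their titles. The authors deposited 1 table of whole-number counts per library. The submitters' processing notes name DESeq2, DESeq, Subread 1.5.2 with featureCounts, STAR 2.5.2b and Trimmomatic 0.36, and the build GRCm38. They give no order, settings, annotation release or use of strand, so reads of overlapping genes cannot be told apart.

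Genes were filtered with filterByExpr (minimum count 10, total 15) and compared with edgeR 4.0.16 in R 4.3.3 (TMM factors, two-sided quasi-likelihood F test, group as the only term, Benjamini-Hochberg adjustment over 16616 genes). The standard error was the log2 fold change divided by the square root of F, and 95% intervals used the test's degrees of freedom. Exon lengths and positions came from GENCODE M21 (GRCm38). The fit was tested on simulated counts.

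Libraries of replicate numbers 1 and 2 deviated together from their group means (Pearson r across genes 0.389 and 0.621). For number 3 r was 0.132, near the 0.120 of Sox9-tg replicate 1 with control replicate 3. The lowest r between different numbers was -0.532, for Sox9-tg replicate 2 with control replicate 1. The labels do not give such a pairing, and the blocked value is given beside calls it changes. The 46 members and all lists were chosen with earlier results of these data known. All members are named, and every called gene of the other lists. Alternatives were upper-quartile, DESeq2 and total-count scaling, 2 other filters, DESeq2 1.42.0, limma-voom (limma 3.58.1), the replicate block and leaving out each library.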

Additional observations from a re-analysis of the deposited data

Results flagged for a closer look

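Of the 44 tested members, 5 had a Sox9-tg library far from the other 3, and chance alone flags about 1 in 20 groups. Sox9-tg replicate 1 held the highest Tgfb3 level, 15.4 CPM against 12.8 to 13.1 CPM in the others. The same library held the lowest levels of Ltbp4, 58.0 CPM against 73.6 to 74.5 CPM, and of Bmp1, 115 CPM against 136 to 138 CPM. Inhbb was lowest in Sox9-tg replicate 2, at 49.4 CPM against 64.7 to 66.5 CPM. Bmpr1a was highest in Sox9-tg replicate 4, at 122 CPM against 101.9 to 105 CPM.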

How the results depend on the processing

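No result changed sign under any alternative once called. Without each library in turn, all genes called ranged from 965 to 3169 (2251 with all libraries), members called higher from 4 to 11, members called lower from 2 to 4, other pathway genes called higher from 5 to 10 and lower from 2 to 8, and the log2 fold change of Sox9 from 3.19 to 3.46. With the replicate block 9 members were called lower and 3109 genes in all; it ended the calls of Smurf1, Msx1 and Acvr1c and of no other named gene. DESeq2 called 5 members lower, adding Bmpr1a (adjusted p = 0.0343) and Smad6 (0.0370), and 9 higher, adding Bmp3 (0.0298) and Ltbp3 (0.0173). With Sox9-tg replicates 3 and 4 averaged, chosen after seeing the data, 1384 genes, 4 members higher and 4 other pathway genes lower were called. Upper-quartile scaling added Bmpr1a (adjusted p = 0.0496), and under it and total counts the median log2 fold change of all genes was -0.06. Fewer libraries give the test less power. With 3 and 4 libraries, scarce genes such as Tgfbr3, Inhba and Grem1 could change by more than 2-fold without passing.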
